A study of Mus musculus with 6 samples.

Results

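The 10 genes described here belong to the stress response of the endoplasmic reticulum (ER) and the Golgi and were measured in c-Kit+ leukemia cells of 2 mouse genotypes. They are Creb3, Creb3l1, Creb3l2 and Creb3l4 of the CREB3 family, the sensors or sensor relatives Atf6, Atf6b and Ern1, the effectors Xbp1 and Atf4, and the chaperone Hspa5. The set is 10 of 22180 named genes on the array. It was chosen by the measured values of Creb3l2, which lie lower on all Chd7f/f arrays, and the other 9 genes were added by function. The difference of Creb3l2 is therefore given as a description, with no test. Each of the 10 genes had 1 probe set annotated to its symbol alone, and all 10 passed the filter on low levels.

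Leukemias of Mx1-Cre, Cbfb+/56M mice are the control here, and the other genotype, called Chd7f/f, adds that floxed allele to the same background. Cbfb+/56M is a knock-in that makes the leukemia fusion Cbfb-MYH11 once Cre has acted. Mx1-Cre is a recombinase under an interferon-responsive promoter, which pIpC induces. The mice of both received pIpC and the mutagen ENU, so the control is itself a mutagenised leukemia. Mx1-Cre acts in many tissues besides blood. Chd7, which encodes a chromatin remodeller, is floxed on both alleles only in Chd7f/f mice. Cells were sorted for c-Kit from the spleen at end-stage leukemia, and 3 samples of each genotype were measured, 1 array per sample; the age of the mice is not given. Levels are RMA values on the log2 scale, so a value of 1 is a 2-fold change, and differences are Chd7f/f minus control.

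Proteins that fold poorly in the ER are sensed by 3 membrane proteins. Ern1 (IRE1alpha) splices the Xbp1 mRNA, Atf6 travels to the Golgi and is cut there by site proteases, and Eif2ak3 (PERK) slows translation while Atf4 is made. The released factors raise chaperones such as Hspa5 (BiP) and the machinery of ER export and degradation. CREB3 family members are built like Atf6, as bZIP factors held in the membrane and released by the same kind of cleavage, and are best known from secretory cells. The arrays measure mRNA only: splicing of Xbp1, cleavage of the membrane-bound factors and kinase activity were not measured.

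The regulatory sequence that ties the sensors to their targets is shown first, because the levels of its carriers are compared below. The ER stress response element (ERSE), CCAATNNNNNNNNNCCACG, is bound by Atf6 and Xbp1 together with NF-Y. It was searched on both strands in the 250 bases before each annotated start site of RefSeq (GRCm38.p6). It was present for 35 of 27025 genes, or 0.130% (37 of 32851 windows, 0.113%). Of the 8 members with a promoter entry, Hspa5 was the only carrier, and 7 of 13 ER chaperone and folding genes with an entry carried it (53.8%), as did Derl3 and Syvn1 of ER-associated degradation. The sites of Hspa5 and of 5 chaperone genes follow with 6 bases on each side, 5′ to 3′ on the gene's strand, and capitals mark the motif in either orientation.
Hspa5 chr2:34772019-34772049, + strand: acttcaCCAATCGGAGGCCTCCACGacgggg
Hsp90b1 chr10:86705632-86705662, - strand: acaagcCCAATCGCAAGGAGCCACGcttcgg
Hsp90b1 chr10:86705527-86705557, - strand: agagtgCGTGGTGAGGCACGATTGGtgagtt
Canx chr11:50325794-50325824, - strand: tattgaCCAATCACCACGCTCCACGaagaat
Pdia6 chr12:17266485-17266515, + strand: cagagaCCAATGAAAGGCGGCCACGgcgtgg
Calr chr8:84847069-84847099, - strand: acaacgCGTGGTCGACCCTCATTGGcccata
Creld2 chr15:88819514-88819544, + strand: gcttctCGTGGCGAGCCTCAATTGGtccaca
In Calr, Creld2 and the latter site of Hsp90b1 the motif reads on the opposite strand. The Hspa5 site starts 65 bases before the start site. None of 4 other motifs was found in the windows of the 8 members: ERSE-II (ATTGG, any base, CCACG), the Xbp1 element UPRE (TGACGTGG), the cAMP element CRE (TGACGTCA) and the Atf4 element CARE (TGATGNAA). The ERSE, ERSE-II and UPRE share the letters CCACG. Shares of all windows were 0.0304% for ERSE-II, 0.563% for UPRE, 1.55% for CRE and 3.45% for CARE. A match is a description of the sequence, and Atf6 and Creb3l1 had no entry.

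Neither of the first 2 principal components separated the genotypes. The first principal component (33.7% of the variance) set control replicate 1 apart, and the second (30.2%) put Chd7f/f replicate 1 and Chd7f/f replicate 2 at its ends. Control replicate 2 alone had high Xist (10.1 against 3.30 to 3.88) and low Eif2s3y (4.43 against 8.72 to 9.11). Kit, the gene of the sort, was at 11.7 to 12.5 on all arrays, and Cbfb at 9.44 to 10.02. Chd7 was at 5.32 to 7.54 in the control and at 5.48 to 6.50 in Chd7f/f leukemias, but whether its probes lie in the deleted part was not known, so it checks no label. Of 10 measured T and NK cell markers, 8 lay under the median level of each array, as did 4 or 5 of 11 plasma and B cell markers. Others lay above it on all arrays: Ighm was at 9.30 to 12.24, Jchain at 5.07 to 8.60 and the NK cell marker Nkg7 at 6.51 to 7.96. The 8 measured erythroid markers lay above the median level of each array, with a mean level of 8.97 to 10.68. The 12 macrophage markers had a mean level of 5.60 to 7.16.

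Creb3l2 (also known as BBF2H7), which drives ER export genes such as Sec23a in cartilage, was lower in Chd7f/f leukemias. Its level was 7.69, 7.17 and 7.29 on the control arrays and 5.81, 5.30 and 6.22 on the Chd7f/f arrays. Every Chd7f/f value lay under every control value, with a gap of 0.96 between the nearest arrays. The means were 7.39 ± 0.27 and 5.78 ± 0.46 (SD, n = 3 each), a difference of -1.61 (SE 0.27), so that the control level was 3.05 times that of Chd7f/f leukemias. The difference was -1.83 to -1.37 with single arrays left out, -1.38 with array weights and -1.47 without both arrays numbered 1. Since the gene was selected for values that do not overlap, its sign could not turn in these, and they support nothing further. Macrophage markers were higher in Chd7f/f leukemias for 12 of 12 genes, where 43.7% of all genes tested were higher. The median was 0.57, and differences ran from 0.0003 for C1qc to 1.12 for Mpeg1. Of these markers 0 passed an adjusted p under 0.05 (limma). At an unadjusted p under 0.05, 1 of the 12 markers did, against 1.84% of all genes tested. Their mean deviation, the average over the genes of the level minus the gene's own mean, was -0.18, 0.16 and -0.85 in the control, and 0.53, -0.38 and 0.71 in Chd7f/f leukemias. Creb3l2 was lowest in Chd7f/f replicate 2, where these markers were below their mean, and their part in its difference was not tested.

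For the other CREB3 family members the values of the genotypes overlapped. Creb3 (Luman), linked to Golgi stress through Arf4, was at 7.38, 7.57 and 7.50 in the control and at 7.85, 7.43 and 7.68 in Chd7f/f leukemias. The genotypes overlapped, and the difference was 0.17 (SE 0.15, 95% interval -0.19 to 0.52). Creb3l4 was at 4.51 to 4.73 in the control and 4.42 to 4.71 in Chd7f/f leukemias, under the median level of 5 arrays and at it in control replicate 3 (4.73 against 4.72), so its signal may lie near background. Its difference was -0.11 (95% interval -0.44 to 0.21).

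Creb3l1 (OASIS), best known from bone-forming cells and astrocytes, varied most from leukemia to leukemia. It was at 6.94, 8.99 and 5.99 in the control and at 8.74, 5.66 and 6.97 in Chd7f/f leukemias. Control replicate 2 and Chd7f/f replicate 1 were high, and the other 4 arrays lay between 5.66 and 6.97. The range over the 6 arrays was 3.33, and the spread within genotypes (1.54 on the log2 scale) was larger than that of 99.3% of the genes tested. With such spread the difference of -0.18 (SE 1.01) had a 95% interval from -2.63 to 2.28. Without control replicate 2 it turned to 0.66 and without Chd7f/f replicate 2 to 0.55, and it was -1.17 without both arrays numbered 1.

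**Figure D1:**
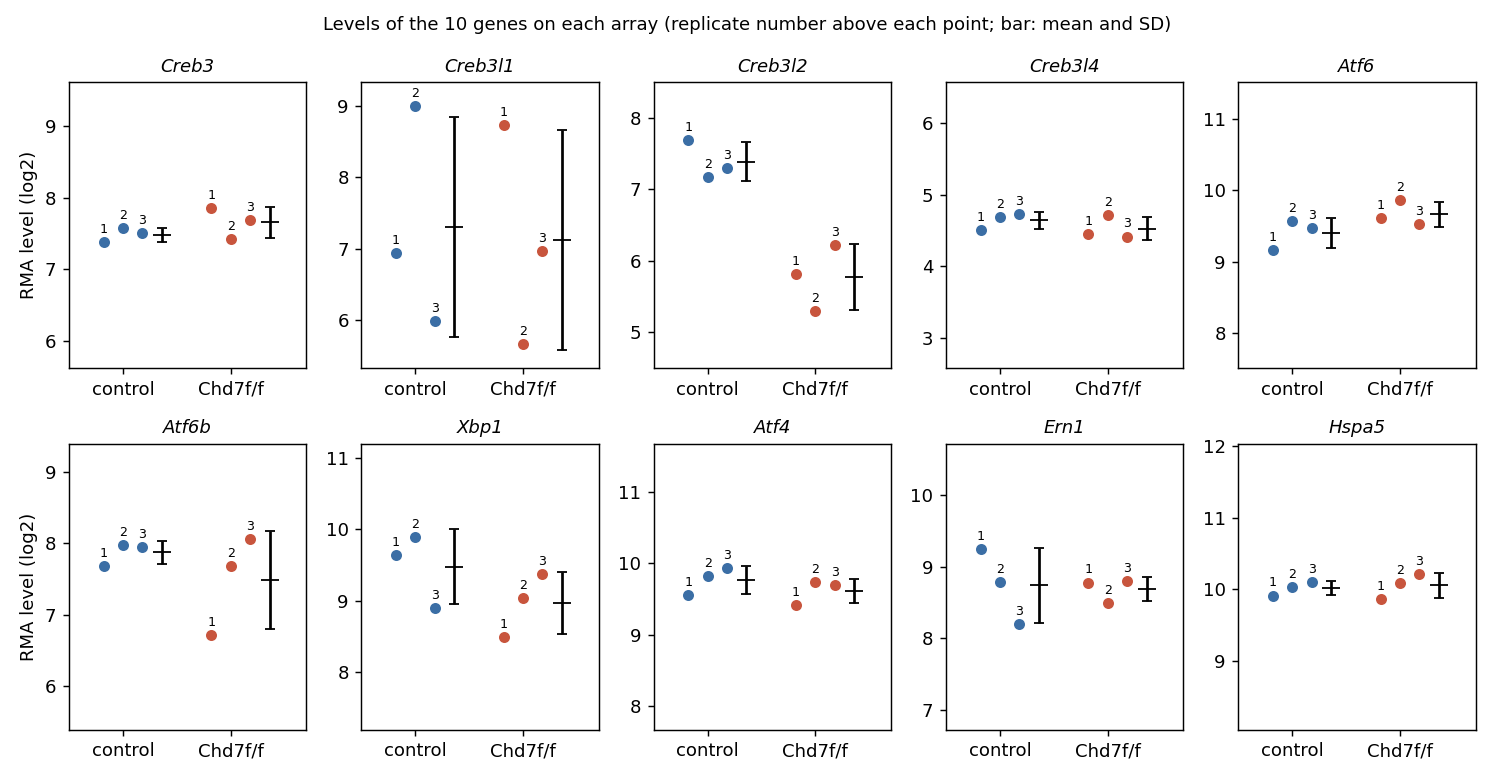
RMA levels (log2) of the 10 genes, 1 panel per gene with the same height in log2 units; points are arrays with their replicate number, and the bar beside them is the mean with SD (n = 3). Creb3l2, which was chosen for values that do not overlap, is the only panel without overlap of the 2 genotypes. Creb3l1 has the widest spread.

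Among the sensors, Atf6 was at 9.16, 9.57 and 9.47 in the control and at 9.61, 9.86 and 9.53 in Chd7f/f leukemias. Only Chd7f/f replicate 3 fell inside the control range, and the difference was 0.27 (SE 0.16, 95% interval -0.12 to 0.66). Its relative Atf6b, a weaker activator that can counter Atf6, was at 7.68, 7.98 and 7.95 in the control and at 6.72, 7.67 and 8.06 in Chd7f/f leukemias. The difference of -0.39 (95% interval -1.22 to 0.44) came with 1 low array: without Chd7f/f replicate 1 it was -0.0050. Ern1 was at 9.24, 8.79 and 8.20 in the control and at 8.78, 8.50 and 8.80 in Chd7f/f leukemias. All Chd7f/f values lay inside the control range, at a difference of -0.052 (95% interval -0.71 to 0.61) that was positive when control replicate 1 was left out (0.20), and likewise for Chd7f/f replicate 2 (0.046).

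Of the effectors, Xbp1, the target of Ern1 and a factor of plasma cells, was at 9.65, 9.90 and 8.90 in the control. In Chd7f/f leukemias it was at 8.50, 9.04 and 9.37. The difference of -0.51 (SE 0.33, 95% interval -1.31 to 0.29) was -0.27 without Chd7f/f replicate 1, -0.19 without both arrays numbered 1 and -0.11 with array weights. Xbp1 was lowest in Chd7f/f replicate 1 and highest in control replicate 2. The mean deviation of the 9 tested plasma and B cell markers was 0.052, 0.39 and -0.29 in the control. In Chd7f/f leukemias it was 0.34, -0.45 and -0.044, and the part of these markers in the level of Xbp1 was not tested. Atf4, the translationally controlled factor of the integrated stress response, was at 9.55, 9.81 and 9.93 in the control and at 9.41, 9.73 and 9.69 in Chd7f/f leukemias, a difference of -0.16 (95% interval -0.53 to 0.22).

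Hspa5, the chaperone that binds the sensors and the usual readout of the response, varied little. It was at 9.91, 10.04 and 10.11 in the control and at 9.86, 10.09 and 10.21 in Chd7f/f leukemias. The genotypes overlapped, with a difference of 0.035 (SE 0.14, 95% interval -0.30 to 0.37). A 2-fold change of its mRNA, a value of 1, lies outside this interval.

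Creb3l2 was in the fit with all genes, but its test is not read because the gene was chosen by these values. Of the other 9 members 0 passed the test (limma with Benjamini-Hochberg adjustment over 15526 genes, adjusted p = 0.9998 for each). At an adjusted p under 0.05, 0% of all genes were called, so these data gave no call for any gene. At an unadjusted p under 0.05 the count was again 0 of 9, against 1.84% of all genes. The genotypes overlapped for all 9, where 6.81% of all genes had none (2.45% with Chd7f/f higher and 4.37% with Chd7f/f lower). Of the 9 genes 3 were higher and 6 lower, with a median of -0.11, while 43.7% of all genes were higher and 56.3% lower with a median of -0.027. With 3 against 3 samples an exact two-sided permutation test cannot give a p below 0.1, and nothing in the labels ties a sample to a single mouse, so the p-values reflect only how far these samples spread.

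**Figure D2:**
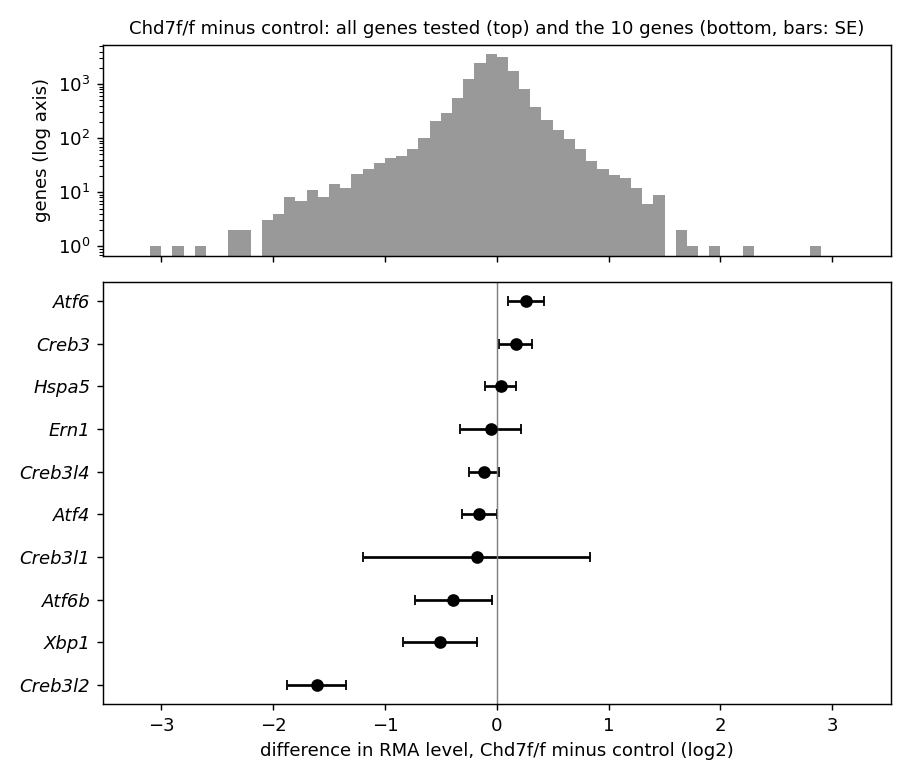
Top, number of genes (log axis) by difference in RMA level for the 15526 genes tested; bottom, the difference of each of the 10 genes with its standard error from limma. Creb3l2 lies at -1.61 and the other 9 between -0.51 and 0.27, with the widest bar for Creb3l1.

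The wider pathway was described with 7 lists holding 108 genes, of which 105 were measured and 104 tested. At an adjusted p under 0.05, 0 of 104 passed (limma), and at an unadjusted p under 0.05, 1 of 104 did, against 1.84% of all genes. Of these genes 40 were higher and 64 lower, with a median of -0.034. No gene differed by 1 or more. The values of the genotypes did not overlap for 3 of the 104 genes, all lower in Chd7f/f leukemias and all from the Golgi list, where 6.81% of all genes had no overlap and 4.37% were lower without overlap.

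The Golgi and COPI list had 6 of 19 genes higher and 13 lower, at a median of -0.083. Uso1, a tether of ER-derived vesicles, was at 9.92, 9.81 and 10.03 in the control and at 9.61, 9.65 and 9.64 in Chd7f/f leukemias. Its difference of -0.29 (SE 0.11, limma unadjusted p = 0.0402, adjusted p = 0.9998) left the genotypes without overlap. Kdelr3, a receptor that returns chaperones to the ER, differed by -0.64 (SE 0.28). The difference was -0.32 without control replicate 2, the array with its highest level (5.85, against 4.45 to 4.88 on the other 5). On the Chd7f/f arrays Kdelr3 was at 4.45 to 4.62, under the median level of each, so its signal there may lie near background. Serpinh1, a collagen chaperone at a similarly low level (4.56 to 5.09), differed by -0.25, and Kdelr1 by 0.22. Arf4, through which Creb3 acts in Golgi stress, differed by 0.052. Without Chd7f/f replicate 1 the median of the list was 0.0082.

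ER export genes include the known target of Creb3l2. Of 19 COPII and translocon genes 3 were higher and 16 lower, with a median of -0.12. Sec23a, the coat subunit best known as a Creb3l2 target, was at 8.71, 8.59 and 9.0 in the control and at 8.42, 9.08 and 8.81 in Chd7f/f leukemias, a difference of 0.0055 (SE 0.21, 95% interval -0.49 to 0.50). The genes of this list with the smallest p were Sec61b (-0.41), Sec24b (0.20), Sec24c (-0.19) and Sar1a (-0.18). Sec24d had the largest difference of the list, -0.79 (SE 0.82, 95% interval -2.78 to 1.20), with its lowest level, 5.73, in Chd7f/f replicate 2. Chd7f/f replicate 1 had the lowest value for 13 of the 19 genes, and without that array 9 were higher and 10 lower, at a median of -0.0021.

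ER chaperones and folding enzymes had 5 of 15 genes higher and 10 lower, with a median of -0.049. Sdf2l1, a co-factor of Hspa5, was at 7.51, 8.45 and 8.24 in the control and at 6.25, 7.74 and 8.35 in Chd7f/f leukemias, a difference of -0.62 (SE 0.56). Hyou1, a large ER chaperone, was at 9.44, 9.37 and 9.71 in the control and at 8.17, 9.28 and 9.48 in Chd7f/f leukemias, a difference of -0.53 (SE 0.35). In both genes Chd7f/f replicate 1 was lowest, and without it the differences were -0.025 and -0.13. Hsp90b1 (-0.24) and Creld2 (-0.23) also had their lowest value there. Without that array 10 chaperone genes were higher and 5 lower, at a median of 0.037.

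Genes of ER-associated degradation went the other way in number, with 10 of 14 higher and 4 lower at a median of 0.064. Without control replicate 1 this split was 6 and 8, and without Chd7f/f replicate 2 it was 7 and 7. Derl3 (-0.21), Derl1 (0.15), Herpud1 (0.14) and Sel1l (0.097) had the smallest p. Derl3, at 4.09 to 4.57, lay under the median level of each array, so its signal may lie near background. Of 17 Atf4 and CHOP targets 9 were higher and 8 lower, at a median of 0.028. Leaving out control replicate 1 made the split 5 and 12. Leaving out Chd7f/f replicate 1 made it 8 and 9, and the split was 6 and 11 when Chd7f/f replicate 2 or 3 was left out. Among these targets the largest difference was that of the mitochondrial folate enzyme gene Mthfd2, at -0.75 (SE 0.55). Its level was low in Chd7f/f replicate 1 (6.96, against 8.46 to 9.19 on the other arrays), and the difference was -0.13 without that array. Besides Mthfd2, the genes with the smallest p were Cars (-0.43), Nupr1 (-0.44) and Eif4ebp1 (-0.20). Asns differed by -0.41 (SE 0.89) and Ddit3, which encodes CHOP, by 0.22.

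The list of stress kinases and membrane proteases, which also holds Scap, Insig1, Insig2 and Tmbim6, had 5 of 11 genes higher and 6 lower. Its median was -0.016. Mbtps2, the site-2 protease that releases Atf6 and CREB3 family factors, differed by 0.28 (SE 0.16) and Mbtps1, the site-1 protease, by -0.032. Insig1 (-0.35) and the eIF2alpha kinase gene Eif2ak2 (-0.29) were lower, and Eif2ak3 (PERK) differed by -0.10. Ern2 was 0.12 higher, at levels (4.17 to 4.49) under the median of each array. Other CREB and ATF factors had 2 of 9 genes higher and 7 lower, at a median of -0.034. Atf3 (-0.36), Atf5 (-0.32), Creb5 (-0.26) and Crebzf (-0.20) had the smallest p, and the close relative Creb3l3 differed by -0.033.

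**Figure D3:**
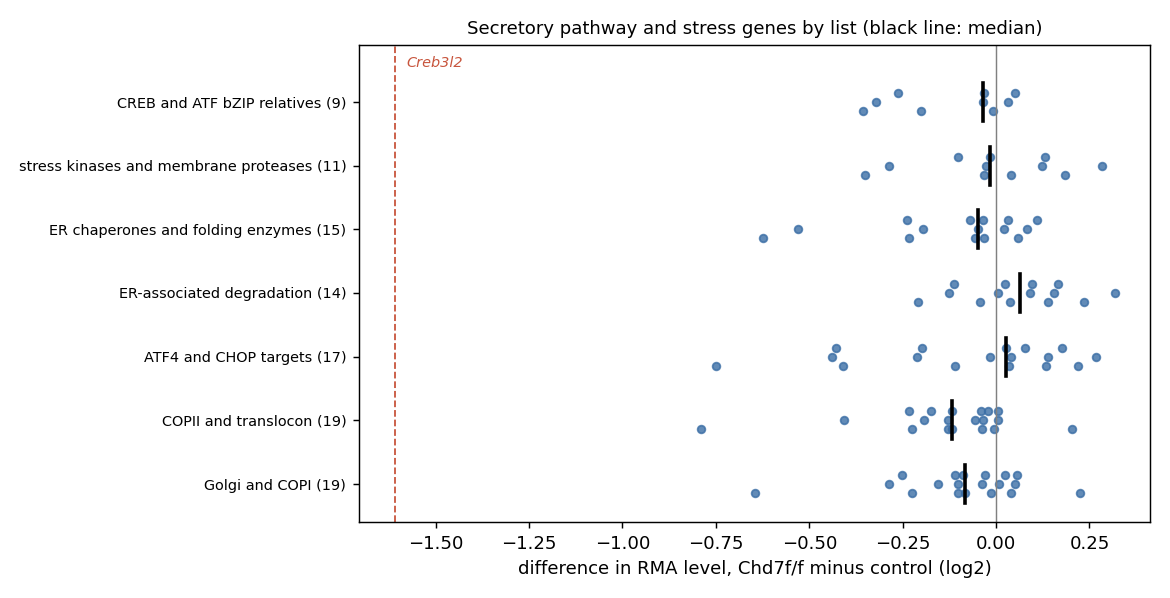
Difference in RMA level (log2) for each tested gene of the 7 lists, number of genes in brackets; the black line is the median of the list and the dashed line the value of Creb3l2. Medians lie between -0.12 and 0.064. No list gene reaches the value of Creb3l2, which was chosen for its low Chd7f/f values.

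Within the set, the genes varied in unlike ways between leukemias. Levels were set against the mean of their own genotype, which removes the difference between genotypes, and compared by Pearson's r over the 6 arrays; this leaves few free values, the arrays share 1 normalization, and the r are descriptions. Over the 45 pairs of members r ran from -0.93 to 0.95. Atf6b and Hspa5 had the highest value (0.95), Creb3l4 and Atf6 were at 0.92, and Atf4 and Hspa5 were at 0.88. Creb3l2 had its lowest r with Atf6 (-0.93) and Creb3l4 (-0.93). The median r with the 15 chaperone genes was 0.82 for Atf6b, 0.64 for Hspa5, 0.64 for Atf4 and 0.46 for Xbp1, and -0.16 for Creb3l2. Medians over all genes tested were close to 0 for these 5 genes, from 0.0033 to 0.097. High medians were not particular to the chaperone list. With ER-associated degradation genes the median was 0.71 for Atf4 and 0.60 for Hspa5. With COPII and translocon genes it was 0.64 for Atf6b and 0.51 for Xbp1. Creb3 (-0.43), Creb3l1 (-0.30) and Ern1 (-0.28) had negative medians with the chaperone genes, and Creb3l4 (0.38) and Atf6 (0.32) positive ones.

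Chd7f/f replicate 1 had the lowest value of 9 of the 15 chaperone genes (60.0%) and of 7 of the 10 tested ERSE carriers among the genes listed (70.0%), against 27.7% of all genes tested. These counts share genes, since 7 of the 10 carriers are on the chaperone list. By list the share ran from 22.2% (other CREB and ATF factors) to 68.4% (COPII and translocon, with 0 ERSE carriers). It was 45.2% for all pathway genes, so it was not particular to chaperones or ERSE carriers. On Chd7f/f replicate 1 Calr was at 11.34, against 11.68 to 11.93 elsewhere, Pdia6 at 8.75 against 9.25 to 9.72, and Canx at 11.53 against 11.68 to 11.88. Hspa5, with the same motif, was also lowest there, at 9.86, next to 9.91 in control replicate 1. Dnajc3, Ero1b and Syvn1, ERSE carriers too, were not lowest on Chd7f/f replicate 1, and Dnajc3 was highest there (9.77). The mean deviation of the chaperone list was -0.36 on this array and -0.065 to 0.15 on the other 5. Erythroid markers had a mean deviation of -0.88 there and 0.83 in control replicate 1, and their part in the result was not tested.

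**Figure D4:**
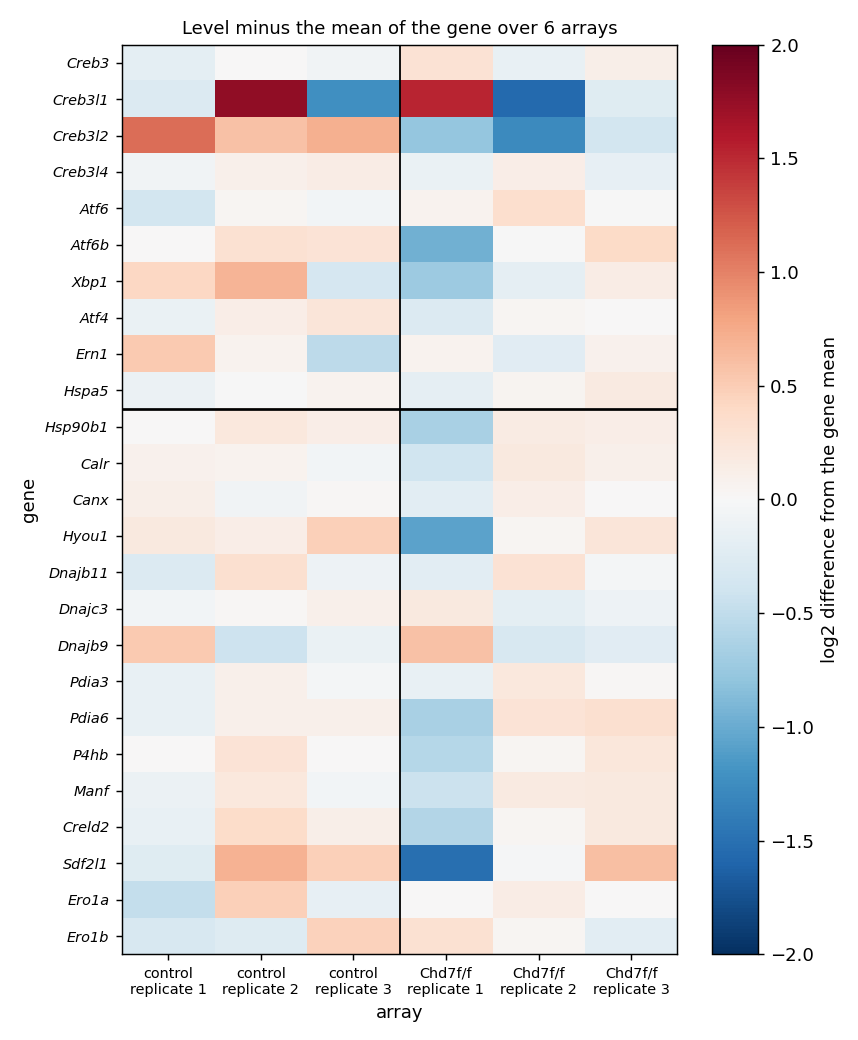
Level minus the gene's mean over the 6 arrays (log2, colour) for the 10 genes (above the line) and 15 ER chaperone and folding genes (below it), 1 column per array. Creb3l2 is high in the control columns and low in the Chd7f/f columns, while 9 of the 15 chaperone genes have their lowest value in Chd7f/f replicate 1.

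The genes most like Creb3l2 in level over the 6 arrays were Osbpl3 (r = 0.98), Tgfa (0.96), Eif5a2 (0.95), Elovl6 (0.95) and Cpt1c (0.95), among genes with an SD of at least 0.5. This likeness includes the difference between genotypes for which Creb3l2 was chosen. Osbpl3, an oxysterol-binding protein gene, was at 7.23, 6.58 and 7.25 in the control and at 5.18, 4.19 and 5.73 in Chd7f/f leukemias. With the genotype means removed the list was different: AU041133, Gm10923, Flt3, Tcf15 and Zfp992, with r from 0.989 to 0.998. Flt3, at 3.88 to 4.93, lay under the median level of every array but Chd7f/f replicate 3, so its signal may lie near background. For Hspa5 the list held Angptl4, Get3, Urod, Slc25a35 and Krtcap2, with r of 0.993 to 0.998. Each list holds the highest r of a search over many genes with few free values, and none was tested.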

How the data were processed

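Total RNA of 6 samples was hybridised to Affymetrix arrays; the design text gives the mouse Gene 2.0 ST type, although the labelling protocol mentions a human type. The authors deposited log2 levels per probe set (41345, with 0 missing); per the submitters' processing notes the tools were Expression Console and RMA, with settings and versions not given in the sources used here. This step equalises arrays, so total signal cannot be compared. Probe sets were named from the platform annotation, updated by Entrez identifier (RefSeq, GRCm38.p6): 23521 had 1 symbol, 1814 several and 16010 none. Per gene the probe set with the highest mean was kept, and genes at or above the 30th percentile (4.13) were tested (15526) with limma 3.58.1 in R 4.3.3 (lmFit, eBayes, no covariate; Benjamini-Hochberg), checked on simulated data. Arrays numbered alike did not vary together, so the number was no block. From each pathway list the 4 genes with the smallest p were named, besides members and likeness genes (5 each, residual SD at least 0.3). Arf4, Sec23a, Sec24d, Edem3, Asns, Ddit3, Mbtps1, Eif2ak3 and Creb3l3 (with Cd34) were named for their role, difference or pattern, after values were seen. ERSE carriers and single marker genes were also named outside the rule. Marker lists covered plasma and B, macrophage, erythroid, and T and NK cells. The members, lists and rules were chosen with earlier results of these data known. Figures used matplotlib 3.10.9.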

Additional observations from a re-analysis of the deposited data

How the results depend on the processing

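No gene passed an adjusted p under 0.05 in limma in any alternative (quantile normalization, median centring, no filter, a filter at the 50th percentile, mean of probe sets, trended and robust prior, array weights, replicate block, each array left out, both arrays numbered 1 left out), members and pathway genes included; an unadjusted p under 0.05 gave 286 genes, of them 1 pathway gene. With the replicate block 0 genes passed, and correlations of same-numbered arrays ran from -0.025 to 0.034. With single arrays left out, signs turned for Creb3l1 (-0.99 to 0.66), Ern1 (-0.32 to 0.20), Hspa5 (-0.045 to 0.13), Creb5 (-0.44 to 0.028), Atf3 (-0.95 to 0.16), Hsp90b1 (-0.38 to 0.028) and Creld2 (-0.39 to 0.0030). Array weights turned Ern1 to 0.17 and Atf5 to 0.041. Without both arrays numbered 1 Ern1 was at 0.15, Atf5 at 0.11, Herpud1 at -0.0092, Eif4ebp1 at 0.028 and Cars at 0.13. The cause was not tested. Each member has 1 probe set, so choosing another gave no value. The number of arrays limits precision, and detection calls were not used here.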

Other observations

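The 2 arrays with high Creb3l1 were also high in Cd34, a surface protein of stem and progenitor cells, a pattern picked out after the values were seen. Cd34 was at 6.05, 7.64 and 5.77 in the control and at 9.47, 5.61 and 6.87 in Chd7f/f leukemias. Edem3, of ER-associated degradation, was at 10.01 and 10.57 on the same arrays and at 8.82 to 9.42 on the other 4. Sec24d, a COPII subunit, was at 9.0 and 8.99 on these arrays, at 7.88 to 8.14 on 3 others and at 5.73 in Chd7f/f replicate 2, where Creb3l1 was lowest too. Pearson's r with Creb3l1 over the 6 arrays, with genotype means removed, was 0.94 for Cd34, 0.94 for Edem3 and 0.87 for Sec24d, as a description without a test.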
